A study of Mus musculus with 9 samples.

Results

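Lysyl oxidases are copper-dependent enzymes that oxidise lysine side chains of collagens and elastin, which lets the chains bond to each other. Elastic fibres have a core of cross-linked elastin on a scaffold of fibrillin microfibrils, and fibulins help to bring elastin, microfibrils and the cross-linking enzymes together. In adipose tissue these fibres lie around vessels and in the septa and the matrix between adipocytes, and cross-linked collagen is a part of the fibrosis seen in obesity.

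The 9 genes described here were taken by symbol from the gene count table, which holds 56748 genes. They are the 5 lysyl oxidase genes *Lox*, *Loxl1*, *Loxl2*, *Loxl3* and *Loxl4*, and the 4 elastic fibre genes *Eln* (elastin), *Fbn1* (fibrillin 1), *Fbln1* (fibulin 1) and *Fbln5* (fibulin 5). All 9 were among the 18510 genes that passed the filter on low counts, at least 0.5 CPM (gene counts scaled to a fixed library total) in at least 1 library. RNA was sequenced from whole epididymal adipose tissue, the visceral fat pad beside the testis, of wild-type male C57BL/6J mice. High-fat diet (HFD) was given from an age of 8 weeks in every group. Pre is the group at the end of 8 weeks of HFD, and WL1 and WL2 are the weight loss groups, which had a further 1 week and 2 weeks on standard diet (SD). There were 3 libraries in each group. No library came from mice kept on HFD for the same added time, so the change of diet and the passage of time cannot be told apart here.

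Sequencing depth was 16434450 to 22729072 counts per library, and scaling factors (trimmed mean of M-values, TMM) ran from 0.933 to 0.954 in Pre and from 0.993 to 1.07 in the weight loss libraries. The mitochondrial share of counts was 3.15 to 3.57% in Pre and 1.86 to 2.88% in the weight loss libraries. The scaling factors and the mitochondrial share separate Pre from the other phases. Sequencing depth overlapped between Pre and WL1 but not between Pre and WL2. Every WL2 library, at 16434450 to 17804883 counts, was shallower than every Pre library, at 18184813 to 22729072 counts. The part of these measures in the comparisons with Pre was not tested. On the first principal component Pre replicate 2 stood apart at -69.7, against -24.9 to 39.8 in the other libraries. The 7 adipocyte markers summed to 21242.5 to 27748 TMM-scaled CPM in Pre, 15738 to 21204 in WL1 and 22583 to 26843 in WL2. All WL1 sums thus lay below those of Pre and WL2, and the part of adipocyte content in the comparisons was not tested. The 4 epididymis markers summed to at most 0.174 CPM. The lymph node markers summed to 87.0 CPM in Pre replicate 2 and to 1.47 to 8.51 CPM in the other libraries. The labels do not say that each library is a separate mouse, so the p-values measure the spread between libraries. In whole tissue, fewer cells of a type and less RNA per cell cannot be told apart.

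The sequences upstream of the transcription start are shown for the fibulins, because *Fbln5* was the 1 gene of the 9 that rose past the test, and *Fbln1* had WL2 libraries all above those of WL1. RefSeq promoter windows on GRCm38.p6 matched 4 of the 9 genes, with 6 windows in all, of which 3 are shown. Window coordinates cannot be set beside the gene coordinates given below, which come from the authors' table and whose build is not stated. Each line gives the 250 bases before an annotated start, 5′ to 3′ on the strand of the gene. Capitals mark the letters of 5 motifs searched on both strands. They are the SMAD box CAGAC, the hypoxia response core ACGTG or GCGTG, the AP-1 site TGACTCA or TGAGTCA, the GC box GGGCGG and the TATA box TATAAA.
Fbln5 start 1, chr12:101818485-101818734, minus strand: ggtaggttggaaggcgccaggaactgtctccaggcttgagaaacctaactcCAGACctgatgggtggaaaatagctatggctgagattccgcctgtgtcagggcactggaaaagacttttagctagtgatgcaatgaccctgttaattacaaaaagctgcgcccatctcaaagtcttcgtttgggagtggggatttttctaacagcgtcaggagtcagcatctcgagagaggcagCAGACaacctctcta
Fbln5 start 2, chr12:101819120-101819369, minus strand: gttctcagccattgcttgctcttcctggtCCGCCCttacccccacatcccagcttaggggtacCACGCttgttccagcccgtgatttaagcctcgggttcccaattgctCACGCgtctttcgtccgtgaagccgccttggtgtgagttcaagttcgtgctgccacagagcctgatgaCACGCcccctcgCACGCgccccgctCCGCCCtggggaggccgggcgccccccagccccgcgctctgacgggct
Fbln1 start 1, chr15:85205699-85205948, plus strand: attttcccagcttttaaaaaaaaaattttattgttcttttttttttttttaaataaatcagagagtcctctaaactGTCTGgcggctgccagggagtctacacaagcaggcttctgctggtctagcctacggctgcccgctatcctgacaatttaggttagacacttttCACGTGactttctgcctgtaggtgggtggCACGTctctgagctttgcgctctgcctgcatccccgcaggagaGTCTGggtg

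The window of *Fbln5* start 1 held 2 SMAD boxes, 199 and 15 bases before the start, and no other motif searched. At *Fbln5* start 2 there were 4 hypoxia response cores and 2 GC boxes, all in the reverse orientation, with 65.2% G and C bases against 49.6% at start 1. The *Fbln1* window shown held 2 SMAD boxes and 3 hypoxia response cores, of which a pair overlap in the letters CACGTG. The window of *Fbln1* start 2, not shown, overlaps it and held 2 SMAD boxes, 4 hypoxia response cores and 1 GC box. Also not shown were the *Loxl4* window, with 1 SMAD box, 1 hypoxia response core and 3 GC boxes, and the *Fbn1* window, with 1 GC box. Among all 32851 promoter windows of the same length, 42.2% held a SMAD box, 38.6% a hypoxia response core, 32.7% a GC box, 12.4% a TATA box and 4.46% an AP-1 site. The matches are a description of the letters, and gene-level counts do not say which start was used.

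Per unit of transcript length and averaged over all phases, *Loxl1* was the most abundant of the 9 genes and *Loxl4* the least. Levels between genes are given as FPKM, the fragment counts that the authors scaled by gene length and library total, as the mean ± SD over the 9 libraries. *Loxl1* stood at 37.2 ± 10.5 FPKM, *Eln* at 27.9 ± 8.42, *Fbln5* at 25.5 ± 5.75, *Fbn1* at 22.5 ± 8.55 and *Lox* at 19.1 ± 5.92. Below them came *Fbln1* at 13.8 ± 6.65, *Loxl2* at 9.84 ± 2.07, *Loxl3* at 3.34 ± 0.550 and *Loxl4* at 1.30 ± 0.603 FPKM. From *Loxl1* down to *Loxl2*, the ranges of neighbours in this order overlapped. The range of *Loxl2*, 7.45 to 13.2 FPKM, lay above that of *Loxl3*, 2.62 to 4.26 FPKM, and *Loxl3* lay above *Loxl4*, at 0.478 to 2.35 FPKM. The order of the leading genes differed by phase. In Pre, *Eln* reached 37.2 ± 7.35 FPKM (SD, n = 3) and *Fbln5* 20.5 ± 2.22, whereas in WL2 *Eln* was at 24.4 ± 1.80 FPKM and *Fbln5* at 32.3 ± 1.67. *Fbln5* was then above *Loxl1*, at 30.9 ± 4.58 FPKM, with overlapping ranges.

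**Figure D1:**
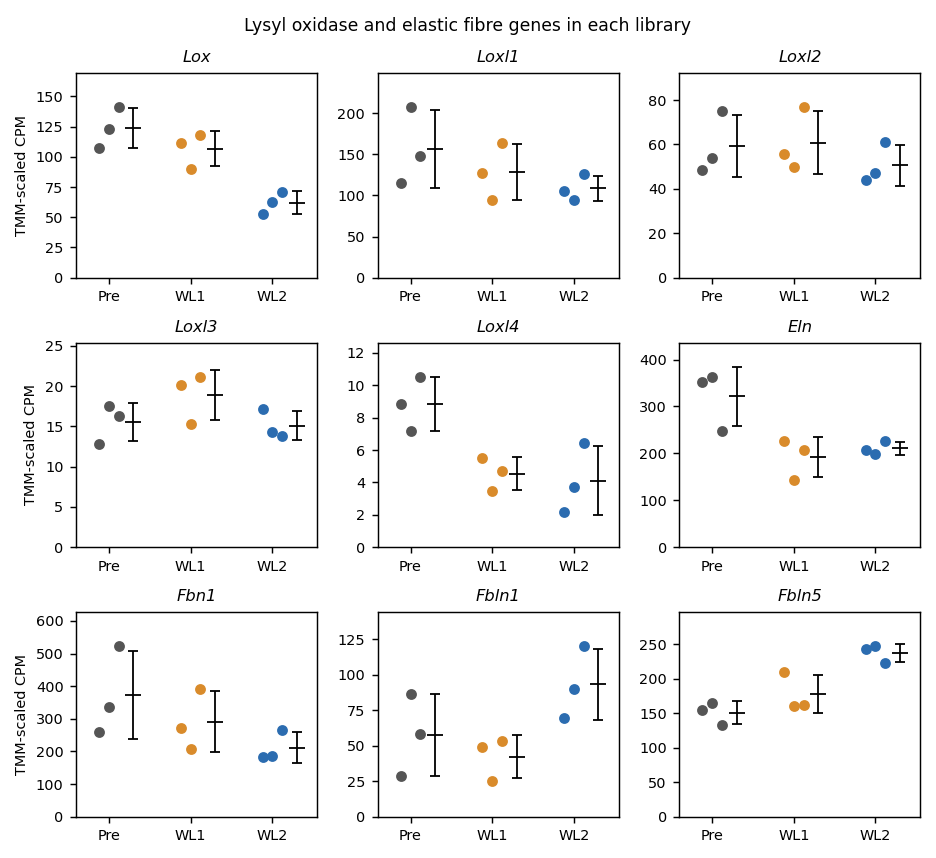
Level of each of the 9 genes in TMM-scaled CPM (vertical axis, from 0) by phase of weight loss, with 1 point per library and the mean ± SD of the 3 libraries beside the points. All 3 *Lox* points of WL2, at 52.5 to 71.2 CPM, lie below the other 6, and all 3 *Fbln5* points of WL2, at 223 to 247 CPM, lie above the other 6.

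Of the 9 genes, *Lox* was lower after 2 weeks of SD, *Eln* was lower after 1 week and *Fbln5* was higher after 2 weeks. The other 6 genes did not pass the test in any comparison. The test was the quasi-likelihood test of edgeR, with p-values adjusted by Benjamini-Hochberg over all 18510 tested genes and a threshold of 0.05. WL1 against Pre had 1 of the 9 genes past it (*Eln*, lower), where 7.29% of all tested genes passed, 4.69% lower and 2.60% higher. WL2 against Pre had 2 (*Lox* lower, *Fbln5* higher), beside 10.0% of all genes, 6.66% lower and 3.35% higher. WL2 against WL1 had 1 (*Lox*, lower), beside 3.68% of all genes, 2.37% lower and 1.31% higher. With 9 genes, these shares of 11.1%, 22.2% and 11.1% rest on 1 or 2 genes each. Libraries did not overlap for 2 of the 9 genes in WL1 against Pre (*Eln* and *Loxl4*, both lower), where 28.7% of all genes did not overlap, 13.9% in the lower direction. The same held for 4 of the 9 genes in WL2 against Pre, 3 lower and 1 higher, beside 30.9% of all genes, 15.8% lower and 15.1% higher. In WL2 against WL1 there were 3, 1 lower (*Lox*) and 2 higher (*Fbln1*, *Fbln5*), beside 30.3% of all genes, 16.4% lower and 13.9% higher.

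*Lox* RNA was lower after 2 weeks of SD than before weight loss and than after 1 week. None of its paralogs passed the test in any comparison, although *Loxl4*, from fewer counts, gave -1.10 on the log2 scale in WL2 against Pre. *Lox* encodes the enzyme the family is named for, which acts on both collagen and elastin (ENSMUSG00000024529, chromosome 18, 52649139 to 52662939 in the authors' table, whose build is not stated). The 3 Pre libraries held 107, 123 and 141 CPM of *Lox*, the WL1 libraries 112, 90.3 and 118 CPM, and the WL2 libraries 52.5, 62.3 and 71.2 CPM. Every WL2 library was below every other library, and the WL1 and Pre libraries overlapped. In WL2 against Pre, *Lox* fell by 50.0%, or -1.001 on the log2 scale (SE 0.15, edgeR adjusted p = 0.00282). WL2 against WL1 gave -0.78 (SE 0.15, adjusted p = 0.0270 by the same edgeR test). WL1 against Pre gave -0.22 (SE 0.15, adjusted p = 0.413 by edgeR), with a 95% interval from -0.55 to 0.12. The WL2 against WL1 result was not past the threshold without WL1 replicate 1, WL1 replicate 3, WL2 replicate 2 or WL2 replicate 3, at adjusted p-values of 0.0649, 0.117, 0.129 and 0.0611 in edgeR and log2 fold changes between -0.89 and -0.68.

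*Loxl1* (ENSMUSG00000032334, chromosome 9, 58195021 to 58220469), the paralog known for its part in elastin cross-linking, ranged from 115 to 207 CPM in Pre, 94.9 to 163 CPM in WL1 and 95 to 126 CPM in WL2. The ranges of the 3 phases overlapped, and the WL2 against Pre value was -0.53 (SE 0.24, 95% interval -1.05 to -0.0011, edgeR adjusted p = 0.191). It was -0.27 without Pre replicate 2. *Loxl2* (ENSMUSG00000034205, chromosome 14, 69846517 to 69933283), which acts on type IV collagen of basement membranes, ranged from 48.7 to 74.9, 50.0 to 76.7 and 43.8 to 61.3 CPM in Pre, WL1 and WL2. Its log2 fold changes were 0.036 in WL1 and -0.23 in WL2 against Pre, each with an SE of 0.21. *Loxl3* (ENSMUSG00000000693, chromosome 6, 83011154 to 83029543) ranged from 12.9 to 17.5, 15.3 to 21.1 and 13.8 to 17.1 CPM, with 0.28 (SE 0.17) in WL1 and -0.042 (SE 0.17) in WL2 against Pre. The value of *Loxl3* is uncertain, since the gene overlaps *Htra2* on the opposite strand, which had 445 to 783 counts per library, and the strand setting of the counting was not given in the labels or the methods.

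*Loxl4* (ENSMUSG00000025185, chromosome 19, 42582421 to 42601252), the least abundant paralog, was lower in both weight loss groups than in Pre without passing the test. It was measured at 8.85, 7.16 and 10.5 CPM in Pre, 5.48, 3.44 and 4.72 CPM in WL1, and 2.19, 3.74 and 6.43 CPM in WL2, from 40 to 228 counts. All Pre libraries were above all 6 weight loss libraries, while WL1 and WL2 overlapped. The log2 fold changes against Pre were -0.96 in WL1 (SE 0.34, edgeR adjusted p = 0.122) and -1.10 in WL2 (SE 0.35, edgeR adjusted p = 0.0723). Without WL2 replicate 3, the WL2 value was -1.58 with an adjusted p of 0.0244 in edgeR. The test of DESeq2 gave adjusted p-values of 0.0499 in WL1 and 0.0217 in WL2 against Pre. With no filter on low counts, edgeR gave an adjusted p of 0.0246 in WL2 against Pre. Of the 19 alternative fits, 18 in WL1 and 16 in WL2 against Pre left *Loxl4* short of the threshold.

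Summed over the 5 paralogs, the family stood at 84.3 ± 16 FPKM in Pre, 72.0 ± 15.5 in WL1 and 55.9 ± 8.07 in WL2 (SD, n = 3). The WL2 libraries were at 50.8 to 65.2 FPKM, the Pre libraries at 66.7 to 97.8 FPKM and the WL1 libraries at 56.3 to 87.3 FPKM. The library totals behind the FPKM were 0.995 to 1.01 times the sums of the counts in Pre, 1.07 to 1.11 times in WL1 and 1.11 to 1.12 times in WL2. When the same genes were scaled to the sums of the counts instead, an alternative chosen after seeing the data, Pre ran from 66.3 to 98.4 and WL2 from 56.7 to 72.3 in the same unit, so these phases then overlapped. *Lox* made up 29.2 ± 3.85% of this sum in Pre, 29.1 ± 2.47% in WL1 and 21.8 ± 2.02% in WL2. *Loxl1* was the largest share in each phase, at 52.2%, 49.8% and 55.3%. The *Loxl3* share was 3.77 ± 0.142% in Pre and 5.32 ± 0.390% in WL1, with no overlap between these phases. A share can move because other paralogs moved, and these values were computed from FPKM without a test.

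**Figure D2:**
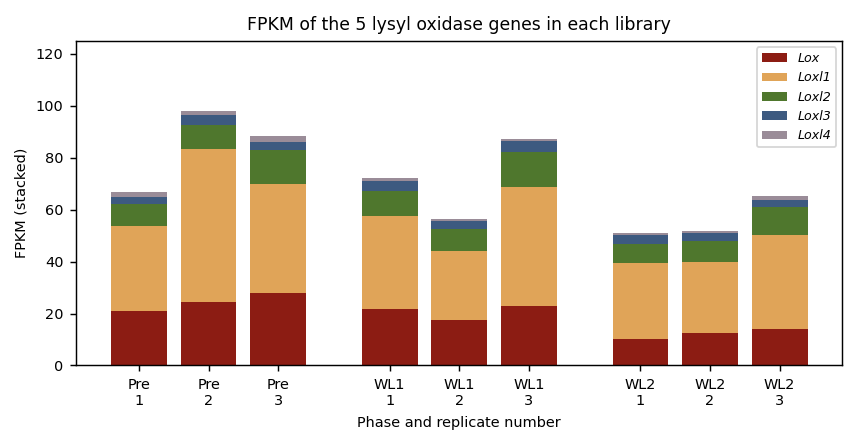
Stacked FPKM of the 5 lysyl oxidase genes in each of the 9 libraries, by phase and replicate number (horizontal axis). The bars of WL2 reach 50.8 to 65.2 FPKM, against 66.7 to 97.8 FPKM in Pre, and the *Lox* part at the foot of each bar is 10.1 to 14.1 FPKM in WL2 and 21.1 to 27.7 FPKM in Pre.

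*Eln* was lower after 1 week of SD and stayed near that level after 2 weeks. It encodes tropoelastin, the soluble precursor of elastin (ENSMUSG00000029675, chromosome 5, 134731447 to 134776177). Its values were 353, 363 and 248 CPM in Pre, 225, 144 and 208 CPM in WL1, and 207, 198 and 226 CPM in WL2. All 6 weight loss libraries were below all 3 Pre libraries, with Pre replicate 3 the nearest to them, and WL1 and WL2 overlapped. In WL1 against Pre, *Eln* fell by 40.1%, or -0.74 on the log2 scale (SE 0.19, edgeR adjusted p = 0.0416). In WL2 against Pre the value was -0.61 (SE 0.19, edgeR adjusted p = 0.0672), and in WL2 against WL1 it was 0.13 (SE 0.19, 95% interval -0.29 to 0.54). The WL1 result lay close to the threshold. It was past it in 7 of the 19 alternatives run, with adjusted p-values of 0.0547 to 0.119 without Pre replicate 1 or 2, any 1 of the WL1 libraries, or WL2 replicate 2 or 3. Without Pre replicate 3 or WL1 replicate 2, *Eln* in WL2 against Pre gave edgeR adjusted p-values of 0.0315 and 0.0438. DESeq2 gave an adjusted p of 0.0184 there, and edgeR with no filter on low counts gave 0.0215. The other 15 of the 19 alternatives left *Eln* in WL2 against Pre short of the threshold.

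Of 7 smooth muscle markers, genes of vessel walls, where much elastin is made, only *Acta2* was past the test in the comparisons with Pre. The summed level of the 7 was 442 to 534 CPM in Pre, 219 to 280 CPM in WL1 and 252 to 296 CPM in WL2. Most of this sum was *Acta2*, smooth muscle actin, which myofibroblasts also express, at 350 to 374, 133 to 160 and 155 to 198 CPM. *Acta2* had log2 fold changes of -1.28 in WL1 and -1.06 in WL2 against Pre (edgeR adjusted p = 0.000532 and 0.000560). The other 6 markers summed to 91.3 to 160 CPM in Pre, 80.6 to 122 CPM in WL1 and 77.8 to 98.6 CPM in WL2, ranges that overlap, and *Tagln* gave positive values of 0.40 and 0.71 that did not pass the test. The part of these cells in the *Eln* result was not tested. Of the 4 skeletal muscle markers, *Acta1*, skeletal muscle actin, was at 28.7 to 43.9 CPM in Pre and 4.64 to 21.5 CPM in the weight loss libraries. The other 3 summed to 0.767 to 1.34 CPM in Pre and 0.562 to 1.65 CPM in the weight loss libraries, with *Myh4* at 0 in every library.

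*Fbn1* (ENSMUSG00000027204, chromosome 2, 125142514 to 125349913), the main subunit of microfibrils, varied widely between libraries of a phase. It was at 259, 337 and 522 CPM in Pre, 271, 208 and 392 CPM in WL1, and 184, 185 and 267 CPM in WL2. WL2 replicate 3 was above the lowest Pre library, so the phases overlapped, and the WL2 against Pre value was -0.81 (SE 0.29, edgeR adjusted p = 0.104). It was -0.49 without Pre replicate 3.

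*Fbln5* rose during weight loss. It encodes a fibulin that binds elastin, integrins and LOXL1 and is needed to build elastic fibres (ENSMUSG00000021186, chromosome 12, 101712824 to 101785314). The libraries held 155, 165 and 133 CPM in Pre, 210.1, 161 and 163 CPM in WL1, and 243, 247 and 223 CPM in WL2. Every WL2 library was above every other library, and WL1 overlapped Pre. In WL2 against Pre, *Fbln5* was 57.6% higher, or 0.66 on the log2 scale (SE 0.13, edgeR adjusted p = 0.0127). WL2 against WL1 gave 0.42 (SE 0.13, edgeR adjusted p = 0.103) and WL1 against Pre 0.24 (SE 0.13, edgeR adjusted p = 0.299). Without WL2 replicate 2, the WL2 against Pre value was 0.63 with an edgeR adjusted p of 0.0601. Fibroblast markers summed to 1583 to 1993 CPM in Pre, 1559 to 2100 CPM in WL1 and 2000.1 to 2464 CPM in WL2. Of these 9 markers, *Dcn*, the proteoglycan decorin, was past the test in WL2 against Pre (log2 fold change 0.84, edgeR adjusted p = 0.0215). The other 8 fibroblast markers did not pass it, and without *Dcn* they summed to 1022 to 1143 CPM in Pre, 873 to 1133 CPM in WL1 and 973 to 1017 CPM in WL2. The part of fibroblast number in the *Fbln5* result was not tested.

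*Fbln1* (ENSMUSG00000006369, chromosome 15, 85090150 to 85170736), a fibulin found in elastic fibres and in basement membranes, had the widest spread of the 9 genes relative to its mean before weight loss. It was at 28.7, 86.1 and 58.1 CPM in Pre, 49.3, 24.8 and 53.0 CPM in WL1, and 69.8, 89.6 and 119.8 CPM in WL2. All WL2 libraries were above all WL1 libraries, and Pre overlapped both. The WL2 against WL1 value was 1.14 (SE 0.39, edgeR adjusted p = 0.121), and WL2 against Pre gave 0.69 (SE 0.38, edgeR adjusted p = 0.282). The latter was 0.37 without Pre replicate 1 and 1.10 without Pre replicate 2.

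Markers of the mesothelium, the cell layer that covers visceral fat pads, ranked much as *Fbln1* did. The 6 markers summed to 37.3, 366 and 327 CPM in Pre, 219, 44.3 and 114 CPM in WL1, and 233, 500.3 and 658 CPM in WL2. Pre replicate 1 and WL1 replicate 2, with the lowest sums, also had the lowest *Fbln1*, and WL2 replicates 2 and 3, with the highest sums, had the highest *Fbln1*. The part of mesothelial cells in the *Fbln1* values was not tested.

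**Figure D3:**
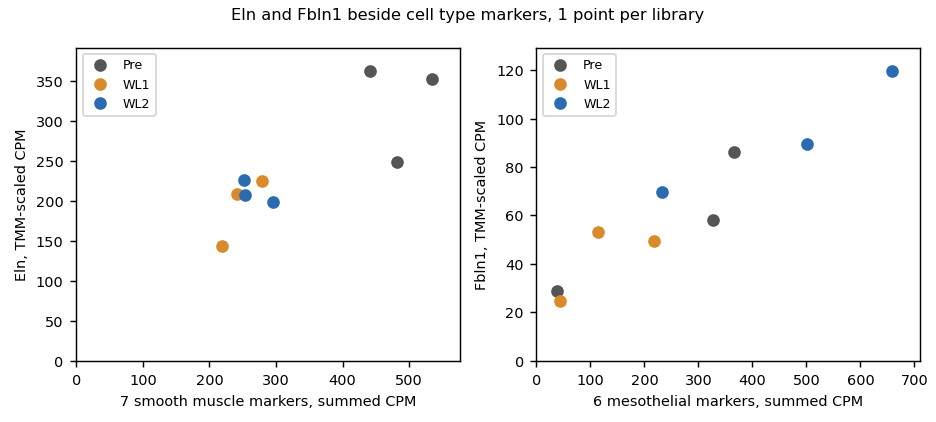
Left, *Eln* against the summed level of 7 smooth muscle markers, most of it *Acta2*, and right, *Fbln1* against the summed level of 6 mesothelial markers, both axes in TMM-scaled CPM with 1 point per library. The 3 Pre libraries stand apart in this sum, at 442 to 534 CPM against 219 to 296 CPM, and the *Fbln1* points run from 24.8 to 119.8 CPM as the mesothelial sum runs from 37.3 to 658 CPM.

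The ratio of *Fbln5* to *Eln* FPKM shows the unequal change of these partners. It was 0.517, 0.531 and 0.627 in Pre, 1.09, 1.32 and 0.916 in WL1, and 1.38, 1.46 and 1.16 in WL2. All 6 weight loss libraries were above all Pre libraries, and WL1 and WL2 overlapped. The ratio of *Fbln1* to *Fbn1* FPKM was 0.308 to 0.709 in Pre, 0.330 to 0.505 in WL1 and 1.05 to 1.35 in WL2. Both ratios were chosen after the values were seen and were not tested.

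A test of any difference among the 3 phases called *Lox* (adjusted p = 0.00624), *Fbln5* (0.0227) and *Eln* (0.0426, edgeR), 3 of the 9 genes, beside 13.1% of all genes. The median log2 fold change of the 9 genes was -0.28 in WL1 against Pre, -0.53 in WL2 against Pre and -0.24 in WL2 against WL1, and that of all tested genes was 0.021, 0.0084 and -0.0014. The medians of the 9 genes moved with single libraries. In WL1 against Pre the median was -0.46, -0.041 and -0.11 without Pre replicates 1, 2 and 3, and -0.11 and -0.50 without WL1 replicates 2 and 3. It was -0.29 in WL2 against Pre without Pre replicate 2, and in WL2 against WL1 it was -0.39, -0.039 and -0.15 without WL1 replicate 2, WL1 replicate 3 and WL2 replicate 2. The comparisons with Pre used the same 3 Pre libraries, and the libraries of WL1 and of WL2 each entered 2 comparisons.

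**Figure D4:**
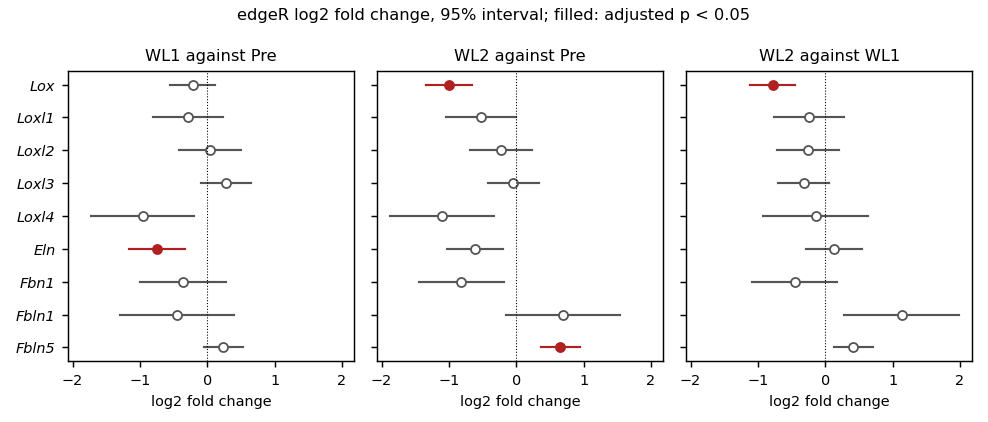
Log2 fold change of each gene (horizontal axis) with its 95% interval in the 3 comparisons, from edgeR over 9 libraries, with filled red points for adjusted p-values under 0.05. The filled points are *Eln* at -0.74 in WL1 against Pre, *Lox* at -1.001 and *Fbln5* at 0.66 in WL2 against Pre, and *Lox* at -0.78 in WL2 against WL1.

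The genes whose pattern over the 9 libraries was most like that of *Lox* were *Adamts2*, an enzyme that trims procollagens, *Vgll3*, a transcription cofactor, and *Fzd5*, a WNT receptor. Likeness was measured as the root mean square difference in log2 CPM after centring each gene, over 14638 genes with a mean of at least 1 CPM. It was 0.12 for *Adamts2*, 0.13 for *Vgll3* and 0.14 for *Fzd5*, where *Lox* itself varied by 0.46 around its mean. *Vgll3* went from 159 ± 39.3 CPM in Pre to 119 ± 19.1 in WL1 and 79.8 ± 16.8 in WL2 (SD, n = 3). For *Fbln5* the nearest genes were *Phf1*, a chromatin protein, at 0.067, *Fmo5*, a flavin monooxygenase, at 0.11 and *Rhebl1*, a small GTPase, at 0.11, where *Fbln5* varied by 0.30. *Phf1* stood at 26.5 ± 3.57 CPM in Pre, 29.7 ± 4.11 in WL1 and 42.2 ± 4.20 in WL2.

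Among 20 other genes of elastic fibre assembly, of which 19 were tested and *Emilin3* was not, 2 were lower in each comparison and none was higher. Of all tested genes, 4.69%, 6.66% and 2.37% were lower in WL1 against Pre, WL2 against Pre and WL2 against WL1. *Adamtsl2*, a secreted protein that binds fibrillin 1 and latent TGF-beta binding protein, was at 33.0, 22.2 and 28.6 CPM in Pre, 6.30, 7.53 and 7.37 CPM in WL1, and 3.997, 3.74 and 3.47 CPM in WL2. The 3 phases did not overlap, and the log2 fold changes against Pre were -1.98 in WL1 and -2.90 in WL2 (edgeR adjusted p = 0.000340 and 1.48e-05). *Ltbp3*, which binds latent TGF-beta in the matrix, stood at 578 ± 71.2, 425 ± 15.3 and 304 ± 19.5 CPM (SD, n = 3), with -0.44 in WL1 and -0.93 in WL2 against Pre (edgeR adjusted p = 0.0454 and 0.000846). The WL2 value of *Ltbp3* kept its side of the threshold in all 19 alternatives, whereas its WL1 call was lost in 13, among them the fits without each of the 9 libraries in turn. WL2 against WL1 gave -0.92 for *Adamtsl2* (adjusted p = 0.0253) and -0.49 for *Ltbp3* (adjusted p = 0.0478, edgeR). The former call was lost without WL1 or WL2 replicate 2 or 3, and the latter was kept without Pre replicate 1 or 2 but lost without each of the other 7 libraries. The list's median log2 fold change was -0.015, -0.26 and -0.32 in the 3 comparisons. *Efemp2* (fibulin 4), which binds LOX, was at 34.0 ± 7.17, 34.3 ± 4.76 and 32.8 ± 4.82 CPM, with -0.054 in WL2 against Pre (edgeR adjusted p = 0.873).

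Of 13 genes for lysyl oxidase processing, binding partners and copper supply, 2 passed the test in WL1 against Pre, 5 in WL2 against Pre and 1 in WL2 against WL1. Over all tested genes, 7.29%, 10.0% and 3.68% passed in these comparisons. The one higher gene was *Thbs1*, thrombospondin 1, a matrix protein that activates latent TGF-beta and binds LOX. It stood at 305, 348 and 510.1 CPM in Pre, 1003, 857 and 753 CPM in WL1, and 1423, 1412 and 1657 CPM in WL2. The phases did not overlap, and the log2 fold changes against Pre were 1.17 in WL1 and 1.95 in WL2 (edgeR adjusted p = 0.00701 and 0.000227). *Slc31a1*, the copper importer CTR1, was at 63.6, 64.4 and 78.1 CPM in Pre, 37.8, 44.4 and 43.1 CPM in WL1, and 31.7, 32.7 and 34.5 CPM in WL2. Again no phases overlapped, with -0.72 in WL1 and -1.06 in WL2 against Pre (edgeR adjusted p = 0.00632 and 0.000417). *Bmp1*, the protease that frees mature LOX from its propeptide, fell from 157 ± 14.1 to 89.2 ± 3.30 CPM between Pre and WL2 (log2 fold change -0.81, edgeR adjusted p = 0.00278). *Adamts2* gave -1.03 in WL2 against Pre and -0.75 in WL2 against WL1 (edgeR adjusted p = 0.000837 and 0.0170), the latter lost without WL1 replicate 3 or WL2 replicate 2. *Tll2*, a *Bmp1* relative, was called at WL2 against Pre (edgeR adjusted p = 0.0382) on 12, 20 and 46 counts in Pre and 2, 0 and 4 counts in WL2, and lost the call without Pre replicate 2 or 3 or any 1 WL2 library. The list's median log2 fold change was -0.31, -0.70 and -0.39.

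Elastin-degrading proteases moved in both directions. Of 11 such genes, 9 were tested (*Mmp7* and *Ctsg* were not), with 2 higher in WL1 against Pre, 1 higher and 1 lower in WL2 against Pre, and 2 lower in WL2 against WL1. Over all tested genes, 2.60% were higher in the first comparison, 3.35% higher and 6.66% lower in the second, and 2.37% lower in the third. *Mmp12*, macrophage elastase, was at 223 ± 89.9 CPM in Pre, 1093 ± 506 in WL1 and 527 ± 412 in WL2, with a log2 fold change of 2.29 in WL1 against Pre (edgeR adjusted p = 0.0320). *Ctsk*, the cysteine protease cathepsin K, gave 1.75 there (edgeR adjusted p = 0.0336), and both calls were lost without any 1 of the Pre libraries or without WL1 replicate 2 or 3. Macrophage markers summed to 1694 to 2902 CPM in Pre, 3434 to 6831 CPM in WL1 and 1779.6 to 3765 CPM in WL2, and their part in these protease values was not tested. *Cela1*, a pancreatic-type elastase, was at 82.0, 59.0 and 71.9 CPM in Pre, 40.2, 56.8 and 42.0 CPM in WL1, and 30.1, 23.6 and 21.7 CPM in WL2. Its WL2 libraries were below all others, with -1.50 against Pre and -0.88 against WL1 (edgeR adjusted p = 0.000793 and 0.0312), and the latter was lost without WL1 replicate 2 or 3 or WL2 replicate 2 or 3. *Prtn3*, a neutrophil protease, gave 1.18 in WL2 against Pre (edgeR adjusted p = 0.0337), lost without Pre replicate 1 or 3 or any 1 WL2 library. *Mmp2*, gelatinase A, gave -0.98 in WL2 against WL1 (edgeR adjusted p = 0.0449) and lost the call in 13 of the 19 alternatives, being kept among the fits without 1 library when that was Pre replicate 1 or 2 or WL1 replicate 2.

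The 9 elastic fibre receptor genes had 1 higher in WL1 against Pre, 1 higher and 2 lower in WL2 against Pre, and 2 lower in WL2 against WL1. The shares of all tested genes in the same order were 2.60% higher, 3.35% higher and 6.66% lower, and 2.37% lower. *Neu1*, the sialidase of the elastin receptor complex, stood at 53.8 ± 1.09, 76.9 ± 6.07 and 78.9 ± 7.69 CPM, with 0.51 in WL1 and 0.55 in WL2 against Pre (edgeR adjusted p = 0.0195 and 0.00991). The WL1 call was lost without Pre replicate 1 or WL1 replicate 2 or 3. *Glb1*, whose splice variant is the elastin-binding subunit of that complex, gave -0.52 in WL2 against Pre and -0.53 against WL1 (edgeR adjusted p = 0.0255 and 0.0433). The integrin subunits *Itgb5*, at -0.57 in WL2 against Pre, and *Itga5*, at -0.77 in WL2 against WL1, made up the rest (edgeR adjusted p = 0.0144 and 0.0494). The call of *Glb1* against Pre was lost without Pre replicate 2 or WL2 replicate 2 or 3, and that of *Itgb5* without WL2 replicate 2 or 3. In WL2 against WL1, *Glb1* and *Itga5* kept their calls without Pre replicate 1 or 2 or WL2 replicate 1 and lost them without each of the other 6 libraries.

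Of 7 collagen chains that lysyl oxidases cross-link, 3 were lower in WL1 against Pre, 5 in WL2 against Pre and 4 in WL2 against WL1, where 4.69%, 6.66% and 2.37% of all genes were lower. None was higher, with list medians of -0.27, -1.12 and -0.96. *Col4a2*, a basement membrane chain, went from 2341 ± 40.5 CPM in Pre to 1481 ± 138 in WL1 and 759 ± 81.0 in WL2 (SD, n = 3), with -0.66 and -1.63 against Pre (edgeR adjusted p = 0.0112 and 3.54e-05). *Col5a1*, a chain of fibrillar type V collagen, gave -0.62 and -1.59 (edgeR adjusted p = 0.0261 and 0.000103). *Col4a1* gave -0.50 and -1.46. *Col5a2* and *Col3a1* passed in WL2 but not in WL1 against Pre, at -1.12 and -0.89 in WL2 (edgeR adjusted p = 0.00365 and 0.0416). The type I chains *Col1a1* and *Col1a2* passed in none of the 3 comparisons. They gave 0.091 and 0.13 in WL1 against Pre, and -0.87 and -0.49 in WL2 against Pre (edgeR adjusted p = 0.0505 and 0.163 in WL2). In WL2 against WL1, *Col5a1*, *Col4a2*, *Col4a1* and *Col5a2* had values of -0.97, -0.97, -0.96 and -0.85. The calls of *Col4a1* and *Col5a1* in WL1 against Pre and of *Col3a1* in WL2 against Pre were lost in 14, 4 and 8 of the 19 alternatives. Among the fits without 1 library, *Col4a1* kept its call without WL2 replicate 1 alone, *Col5a1* lost it without Pre replicate 2 or 3 or WL1 replicate 1 or 2, and *Col3a1* lost it without Pre replicate 2 or 3 or any 1 WL2 library. Without WL2 replicate 2 the 4 chains were not past the threshold in WL2 against WL1, and *Col5a2* was not past it without WL1 replicate 1 or 3 or WL2 replicate 3 either.

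Of 12 genes of TGF-beta and hypoxia signalling, which are known to induce *Lox*, 1 passed the test in each comparison. The share of all tested genes that passed was 7.29% in WL1 against Pre, 10.0% in WL2 against Pre and 3.68% in WL2 against WL1. *Tgfbr1*, a TGF-beta receptor, was at 41.5 ± 9.04 CPM in Pre, 71.0 ± 13.4 in WL1 and 39.7 ± 5.79 in WL2, with 0.77 in WL1 against Pre and -0.84 in WL2 against WL1 (edgeR adjusted p = 0.0377 and 0.0414). The first call was kept without Pre replicate 3 or WL2 replicate 1, and the second without Pre replicate 1 or 2 or WL2 replicate 1, and both were lost without each of the other libraries. *Hif1a*, a hypoxia-inducible transcription factor, gave -0.63 in WL2 against Pre (edgeR adjusted p = 0.0159), lost without WL2 replicate 2 or 3. *Tgfb1* was at 112 ± 37.4, 142 ± 14.8 and 81.9 ± 15.0 CPM, with -0.46 in WL2 against Pre (edgeR adjusted p = 0.210).

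**Figure D5:**
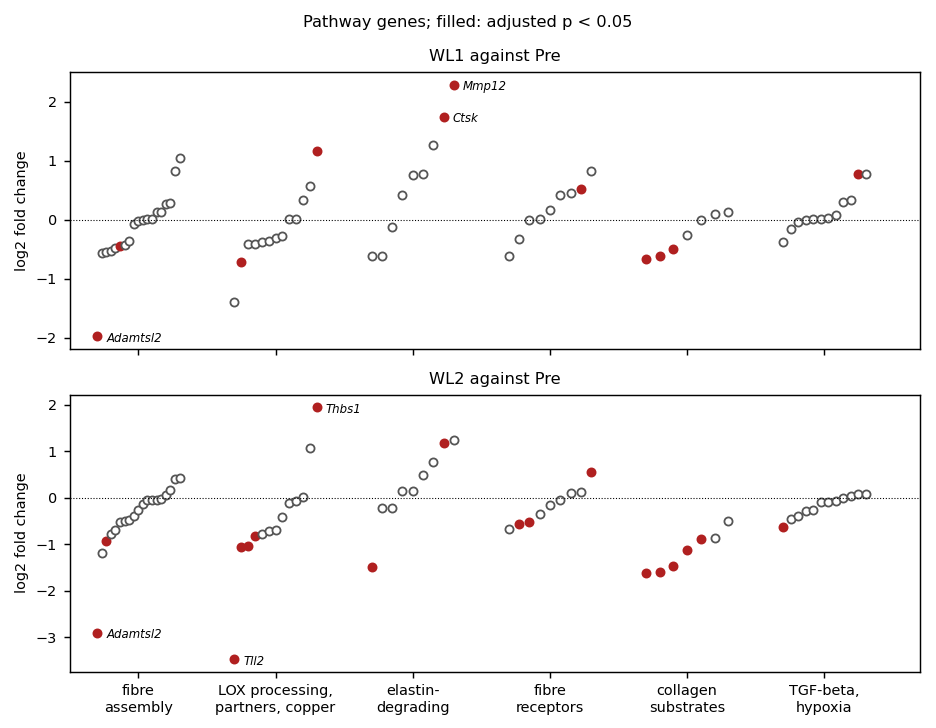
Log2 fold change (vertical axis) of the tested genes of the 6 pathway lists (horizontal axis, sorted within each list) in WL1 and in WL2 against Pre, with filled red points for edgeR adjusted p-values under 0.05. *Adamtsl2* lies lowest in WL1 against Pre at -1.98, *Thbs1* rises to 1.95 in WL2 against Pre, and the 5 filled collagen points of WL2 lie between -1.63 and -0.89.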

How the data were processed

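Sequencing measured RNA in 9 libraries of epididymal adipose tissue, 3 each of Pre, WL1 and WL2, grouped by the sample titles. The authors deposited whole-number counts per gene without normalization, and FPKM per gene, each for 56748 genes. The FPKM implied library totals 0.995 to 1.01 times the sums of the counts in Pre and 1.07 to 1.12 times in the weight loss libraries. The submitters' processing notes name HISAT2, HISAT, TopHat2, CASAVA and the builds GRCm38 and mm10. Counting program, strand setting and annotation were not given in the sources used here. Only 1435 of the 52073 genes found in both the table and GENCODE M21 (GRCm38) had equal coordinates. Gene coordinates are therefore those of the authors, and their build is not named.

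For the 18510 genes that reached 0.5 CPM in 1 library or more, counts from all 9 libraries were fitted together in edgeR 4.0.16 (R 4.3.3) by quasi-likelihood, with TMM factors and no covariates. The threshold was an adjusted p of 0.05 (Benjamini-Hochberg over all tested genes). CPM values were TMM-scaled, and log2 CPM for the likeness measure used a prior count of 4. Tests were checked on simulated data. Chi-square per degree of freedom between libraries of 1 phase was 9.13 to 48.9, above sampling noise. The alternatives tried were a filter on 3 libraries or none, DESeq2 1.42.0, scaling by RLE, upper quartile or totals alone, a block for replicate number, limma 3.58.1 on log2 of FPKM + 1 or FPKM + 0.1, separate fits for each pair of phases, and each library left out. Text names all 9 genes, and of each pathway list the 4 called genes with the largest change and any called in the minority direction. *Bmp1*, *Col1a1*, *Col1a2*, *Col3a1*, *Efemp2*, *Tgfb1* and the single markers were named after their values were seen. The genes, lists, tests and rule were chosen with earlier results of these data known.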

Additional observations from a re-analysis of the deposited data

How the results depend on the processing

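The number of the 9 genes past the threshold was 1 in WL1 against Pre, 2 in WL2 against Pre, 1 in WL2 against WL1 and 3 for any phase. Without the filter on low counts it was 5 in WL2 against Pre, 2 in WL2 against WL1 and 6 for any phase. DESeq2 called 2 in WL1 against Pre, 5 in WL2 against Pre, 3 in WL2 against WL1 and 5 for any phase. Both settings added *Loxl4*, *Eln* and *Fbn1* in WL2 against Pre and *Fbln1* in WL2 against WL1. DESeq2 also added *Loxl4* in WL1 against Pre and *Fbln5* in WL2 against WL1. In WL1 against Pre the number was 0 with library totals alone, both limma fits on log2 FPKM and the fit of the compared phases alone. Leaving out 1 library gave 0 to 1, 1 to 3, 0 to 1 and 1 to 3 genes in the same order, with the 1 in WL2 against Pre and for any phase reached without WL2 replicate 2. *Lox* in WL2 against Pre was past the threshold in all 19 alternatives, with log2 fold changes of -1.11 to -0.85, and *Fbln5* in all but 1, at 0.57 to 0.81. The cause of these differences was not tested.

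Deviations of same-numbered libraries correlated at -0.28 to 0.11 over 9 pairs, and those of differently numbered libraries at -0.20 to 0.24 over 18 pairs. No pairing by replicate number was seen in these values, which cannot decide it with 3 libraries in each phase. With the replicate number as a block, 0, 3 and 1 genes passed in the 3 comparisons and 3 for any phase. *Eln* in WL1 against Pre was then at an adjusted p of 0.0732 and *Fbn1* in WL2 against Pre at 0.0217 in edgeR.

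Of 513 gene results under alternatives, 473 kept their direction and side of the threshold, 17 lost the call, 14 gained it and 9 changed sign, none of them called. *Loxl2* in WL1 against Pre was -0.086, -0.028 and -0.18 without Pre replicate 1, Pre replicate 2 and WL1 replicate 3, with a range of -0.18 to 0.24 over the fits without 1 library. *Loxl3* in WL2 against Pre was 0.11 with library totals alone and 0.050 and 0.017 without Pre replicate 2 and WL2 replicate 3 (range -0.16 to 0.050). *Loxl4* in WL2 against WL1 was 0.014 and 0.16 without WL1 replicate 1 and WL2 replicate 1 (range -0.61 to 0.16), and *Eln* was -0.043 without WL1 replicate 2 (range -0.043 to 0.26). Over all genes, 1350, 1853, 681 and 2417 passed in the 3 comparisons and for any phase, DESeq2 called 2344, 2717, 1935 and 4104, the fit without a filter 1861, 2119, 1668 and 3369, and the fits without 1 library 512 to 1500, 743 to 1688, 37 to 1351 and 1062 to 2475. The 37 came without WL2 replicate 2. Library totals alone moved the median of all genes to 0.12 in WL1 and 0.16 in WL2 against Pre. Scaling to the sums of the counts, chosen after seeing the data, moved the family difference between WL2 and Pre from -28.4 to -22.5 FPKM. With 40 to 228 counts, *Loxl4* was measured with the widest counting error of the 9 genes.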
